A study of Caenorhabditis elegans with 4 samples.

Results

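Chromosome III of Caenorhabditis elegans carried 579 of the 2621 regions that the authors called in a combined list of anti-GFP chromatin immunoprecipitation (ChIP-seq) for the protein F23B12.7. The members are the rows of that list placed on chromosome III, and the regions on III from each ChIP replicate are set beside them. Replicate 1 placed 232 of its 1038 regions there, and replicate 2 placed 82 of 310. The reference is the other 5 chromosomes, which held 2042, 806 and 228 regions in the combined, replicate 1 and replicate 2 lists.

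There are 2 ChIP samples and 2 input samples, all from young adult hermaphrodites of strain OP429 kept at 20 °C. Every sample, input included, carries the unc-119(ed3) mutation on chromosome III and the bombarded transgene wgIs429, which joins F23B12.7 to GFP and 3xFlag (TY1GFP-3xFLA in the genotype) and supplies a working copy of unc-119. The transgene is a copy added by bombardment, and the strain was then outcrossed. The input is unprecipitated chromatin of the same strain, and no precipitation from worms lacking the tag is among the samples, so signal unrelated to the tagged protein cannot be told apart from its binding. Chromatin came from whole worms, so binding in few cells and weaker binding in many cells cannot be told apart either. The labels do not say whether the replicates were separate cultures.

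Human CEBPZ, a CCAAT-binding factor, is the relative of F23B12.7, and its yeast counterpart, Noc1, works in the assembly of ribosomes. Worm chromosomes have no single centromere. The central part of an autosome is rich in genes and low in recombination, whereas the arms recombine more and hold more repeats. A transcription factor mapped by ChIP-seq is usually found as short regions near gene starts, often several close together where genes are dense. The only reference at hand belongs to another genome build, so the genes and sequences under the regions were not analysed here, the unc-119 locus included. A region is named by its WS180 position.

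Each region has a q-value, the authors' false discovery estimate for ChIP over input, and −log10 q is used below so that larger numbers mean stronger calls. It rises with read number and region width as well as with enrichment, and the depth behind it is unknown. Intervals below are 95% intervals. They cover counting error only and treat neighbouring regions as if they were independent. The combined list is taken to pool the replicates, so its agreement with their lists is not independent support. A difference whose interval excludes 0 (or a ratio whose interval excludes 1) is called a difference.

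Chromosome III had more called regions per Mb than any other chromosome in all 3 lists. The combined list held 42.1 regions per Mb on III and 23.7 per Mb on the other 5 chromosomes together, a ratio of 1.78 (1.62 to 1.95). In replicate 1 the densities were 16.9 per Mb on III and 9.34 per Mb elsewhere (ratio 1.81, 1.55 to 2.09), and in replicate 2 they were 5.96 and 2.64 per Mb (ratio 2.26, 1.73 to 2.92). Chromosome III makes up 13.8% of the called genome length, taking the furthest region end as the length of each chromosome. It held 22.1% of combined, 22.4% of replicate 1 and 26.5% of replicate 2 regions.

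The nearest chromosome in this order was II in every list. The combined list had a ratio of III to II of 1.33 (1.18 to 1.50), replicate 1 of 1.25 (1.03 to 1.51) and replicate 2 of 1.54 (1.09 to 2.19). In the combined list IV followed with 27.6 regions per Mb, while V, I and X lay between 18.7 and 20.9 per Mb. Called regions on III covered 250030 bp, or 1.82% of its length, against 0.977 to 1.37% on the other chromosomes.

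**Figure D1:**
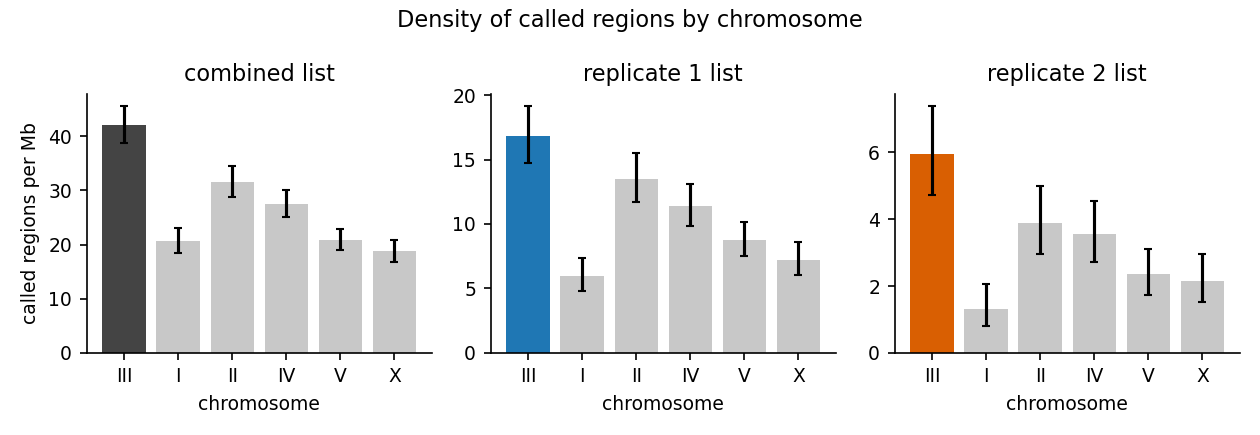
Called regions per Mb (vertical axis, scaled separately in each panel) on chromosome III and the other chromosomes in the combined, replicate 1 and replicate 2 lists. Bars are densities, coloured for III and grey for the others, with exact Poisson 95% intervals; III stands highest in each panel, at 42.1, 16.9 and 5.96 regions per Mb.

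Chromosome III was dense in the left, central and right parts of its length. When III was divided into sections of 33.3% of its length, with boundaries at 4.59 and 9.18 Mb, the combined list held 164 regions in the left, 234 in the central and 181 in the right section. These are 35.7, 51.0 and 39.5 regions per Mb, against an average of 31.6 per Mb over the whole of chromosome II. The sections of II were uneven, with 83, 199 and 200 regions from left to right on a length of 15.2 Mb. The left section of III was therefore sparser than the central and right sections of II. The central share was 40.4% (36.5 to 44.5%) on III and 39.8% (37.7 to 42.0%) on the other chromosomes, a difference of 0.60 points (−3.87 to 5.16), so no difference was detected. In replicate 1 the central shares were 40.1% on III and 40.7% elsewhere.

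Replicate 2 differed, with 40 of its 82 regions on III in the central section. This was 48.8% (38.3 to 59.4%) on III and 34.2% (28.4 to 40.6%) on the other chromosomes, a difference of 14.6 points (2.27 to 26.7). The central share was not particular to III, since II had 47.5% (35.3 to 60.0%) and I had 45.0% of its 20 regions, while V, X and IV had 30.6%, 26.3% and 25.8%. Neither the combined list nor replicate 1 had a difference between III and the rest.

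In bins of 1 Mb, every bin of III held at least 26 combined regions. The fullest was 5 to 6 Mb with 63 regions, followed by 8 to 9 Mb with 58, and by 7 to 8 and 10 to 11 Mb with 48 each. The bin from 5 to 6 Mb was also the fullest in both replicates, with 26 regions in replicate 1 (11.2% of its regions on III) and 15 in replicate 2 (18.3%).

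The sparsest bins lay near the ends. The left end, 0 to 1 Mb, held 26 combined, 11 replicate 1 and 2 replicate 2 regions. Its combined count was below the averages of 31.6 per Mb on II and 27.6 per Mb on IV. The bins from 12 to 13 Mb and from 1 to 2 Mb held 31 and 32 combined regions. The last stretch, from 13 Mb to the last called base, is 0.764 Mb long, and its 29 combined regions are 38.0 per Mb.

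The counts of replicates 1 and 2 over the 14 bins had a Spearman's rho of 0.67. This is a description of bins that share libraries and unequal list lengths. The coefficient of variation over full bins was 0.25 on III in the combined list, close to 0.24 on X and 0.25 on I and below 0.42 on II and 0.39 on V. Relative to their own mean, the bins of III were thus more even than those of II and V. The median full bin held 43 combined regions on III, against 18 to 36 on the other chromosomes. Counting error raises the coefficient more where bins hold fewer regions, and it was not taken out.

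**Figure D2:**
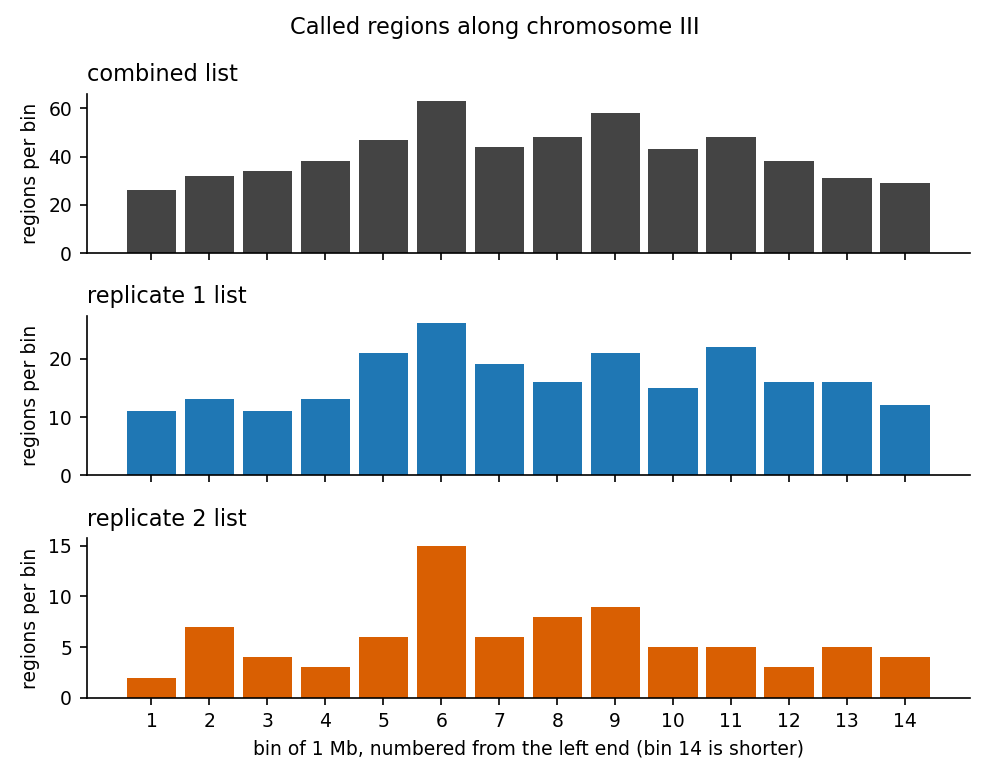
Number of called regions in each 1 Mb bin of chromosome III (horizontal axis, bins numbered from the left end) in the combined, replicate 1 and replicate 2 lists; bars are counts without replication. Bin 6 is the tallest in each panel, with 63, 26 and 15 regions, and bin 1 is the lowest in the combined list, with 26.

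The first combined region of III began at 89163 and the last ended at 13764088. Neighbouring combined regions were separated by a median of 13337 bp on III (11687 to 16507 bp), against 22250 bp (19950 to 24617 bp) on the other chromosomes. The rank-based shift between the 2 sets of gaps was −5646 bp (−7931 to −3582 bp). Gaps were shorter on III in the replicates too, with medians of 33030 bp on III and 60532 bp elsewhere in replicate 1, and of 107733 and 236570 bp in replicate 2.

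A shorter gap follows from a higher density, so gaps were also scaled to their mean. The median gap was 0.574 of the mean gap on III, inside the range of 0.505 (II) to 0.669 (X) on the other chromosomes. Gaps of at most 5000 bp were 27.3% of all gaps on III, against 26.6% on II, 26.3% on V, 26.2% on IV, 19.9% on X and 16.1% on I. The shortest gap on III was 216 bp, and on each other chromosome the shortest was between 201 and 226 bp.

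Long stretches without a call were rarer. Only 13 of the 578 combined gaps on III exceeded 100 kb, against 29 to 58 of the 310 to 481 gaps on each other chromosome. This fixed limit does not take out density, since the mean gap was 23226.5 bp on III and 31195 (II) to 52017 bp (X) elsewhere. The 5 longest on III ran from 9145162 to 9393274 (248113 bp), from 1625977 to 1824577 (198601 bp), from 9930715 to 10120115 (189401 bp), from 1249514 to 1418732 (169219 bp) and from 8473565 to 8630865 (157301 bp). No replicate region lay wholly inside any of them. The longest gap on the other chromosomes was 693312 bp, on V.

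The longest gaps of the replicates held regions of the combined list. Replicate 1 called nothing between 9848311 and 10203085, where the combined list had 7 regions. Replicate 2 called nothing between 11142235 and 11823274, a stretch with 21 combined and 4 replicate 1 regions, or between 2786201 and 3460130, with 25 combined and 6 replicate 1 regions.

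Close runs of regions were common on chromosome III but short. A run is taken as 3 or more regions of a list with gaps of at most 5000 bp. The combined list had 38 runs on III, 25 of 3 regions, 11 of 4 and 2 of 5, and no run was longer. They held 129 of the 579 regions, or 22.3% (19.1 to 25.8%), against 318 of 2042, or 15.6% (14.1 to 17.2%), on the other chromosomes, a difference of 6.71 points (3.11 to 10.6).

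This share was not particular to III, since chromosome V had 22.3% at 20.9 regions per Mb. Chromosomes II and V also had longer runs, of up to 11 and 7 regions. When each chromosome was cut to the density of X by keeping its best regions, the share in runs was 12% on III, against 17.9% on V, 11.7% on X and 7.09 to 8.77% on I, II and IV. The difference between III and the rest was then 0.95 points (−2.84 to 5.70), so an excess was no longer detected. The weakest q kept was 1.65e-06 on III and 2.49e-04 on X, so the cut changed call strength along with density. Without that cut, the difference with gaps of at most 2000 bp was 1.45 points (−0.669 to 4.005), likewise not detected. With gaps of at most 10000 bp it was 11.7 points (7.34 to 16.2), with 40.6% in runs on III and 28.8% elsewhere.

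The 5 runs with most regions on III illustrate how runs were made up. The tightest run of 5 spanned 9315 bp from 1616662 to 1625976, with a best q of 8.03e-14, and had 1 region called in both replicates, 2 in replicate 1 alone, 1 in replicate 2 alone and 1 in neither. The other run of 5, from 10706987 to 10720394, had 4 regions called in replicate 1 alone and 1 in neither. Of the tightest runs of 4, the one from 10817958 to 10822729 packed 3188 called bases into 4772 bp, with a median gap of 363 bp. The runs from 1599015 to 1604946 and from 5196275 to 5203019 also had 4 regions each, of which 3 and 1 were called in neither replicate.

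Runs were partly seen in the replicates. At least 1 region was called in a replicate in 32 of the 38 runs, and a region was called in both replicates in 11. All regions were called in a replicate in 5 runs. A run offers several regions for a call, and the same counts were not made for runs elsewhere. Over single combined regions on III, 41.1% were called in at least 1 replicate and 11.6% in both. Replicate 1 had 9 runs of its own on III, with 28 regions, and all 9 overlapped a combined run. This overlap was largely set in advance, since 228 of the 232 replicate 1 regions on III overlapped a combined region. The share of replicate 1 regions in runs was 12.1% on III and 4.84% elsewhere (difference 7.23 points, 3.26 to 12.2). Chromosome V came close to III here too, with 10.4% (6.75 to 15.6%) in replicate 1. The single run of replicate 2 in the whole genome lay on III, from 5939147 to 5944008, inside the fullest bin. Of its 3 regions, 2 were pieces of the same combined region, from 5939034 to 5940999.

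Regions in runs on III had a median width of 453 bp, against 328 bp outside runs, and their median −log10 q was 6.22 against 5.37. On the other chromosomes the median widths were 457.5 bp in runs and 366.5 bp outside, and the median −log10 q was 5.53 and 5.47. A replicate call was found on III for 49.6% (41.1 to 58.1%) of the regions in runs and for 38.7% (34.3 to 43.2%) outside them. Calls in both replicates on III were 10.1% (5.98 to 16.5%) in runs and 12% (9.31 to 15.3%) outside. On the other chromosomes the shares with a replicate call were 44.7% in runs and 39.2% outside, and those with calls in both were 11.6% and 8.35%.

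The strongest calls of III were of narrow and broad kinds. Of the 20 with the lowest combined q, 13 were between 332 and 647 bp wide and 7 were between 1272 and 3707 bp. They were spread over 5 in the left, 11 in the central and 4 in the right section, and 4 of the 20 belonged to a run. All 13 narrow regions were called in both replicates, as were 4 of the 7 broad ones; the other 3 were called in replicate 1 alone. In 16 of the 17 called in both, the best q was lower in replicate 1.

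The strongest region was broad, from 8443599 to 8447305, with q = 1.45e-53. Each replicate called it in 2 pieces. The left piece of replicate 1, 8443609 to 8444664, had q = 4.44e-11, and its right piece, 8445068 to 8447231, had q = 1.00e-17. In replicate 2 the left piece, 8443576 to 8444219, had q = 1.18e-07, and the right piece, 8445949 to 8447228, had q = 6.93e-15. The right piece was thus the stronger in both.

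The region from 5939034 to 5940999 (q = 3.54e-25) was the only other combined region on III that held 2 pieces of a replicate, and here the replicates differed in the order of the pieces. In replicate 1 the left piece, 5939050 to 5940075, had q = 2.08e-10 and the right piece, 5940380 to 5940933, had q = 3.25e-05. In replicate 2 the left piece, 5939147 to 5939741, had q = 1.29e-07 and the right piece, 5940068 to 5940995, had q = 4.27e-09.

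The remaining broad regions varied in replicate support. The region from 3866727 to 3867998 had the lowest q on III in both replicates, at 1.19e-32 in replicate 1 and 1.26e-21 in replicate 2, and its combined q ranked 2 on III. The region from 13464116 to 13465476 ranked 2 on III in replicate 1 (q = 6.92e-19) but 27 on III in replicate 2 (q = 6.35e-07). Replicate 2 called neither the region from 9052394 to 9054631 (2238 bp, combined q = 3.32e-26), nor that from 5502861 to 5504612 (1752 bp, q = 8.38e-20), nor that from 4899181 to 4900457 (1277 bp, q = 1.07e-16). The last of these was also weak in replicate 1, at q = 1.88e-06 and rank 97 on III. The fifth widest region, from 3800397 to 3801911, ranked 71 on III in the combined list (271 over all chromosomes) and 227 of the 232 regions on III in replicate 1.

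Among the narrow regions the highest was 8043714 to 8044171, 458 bp wide, with a combined q of 4.42e-29; replicate 1 gave it 7.32e-17 and replicate 2 gave it 9.13e-12. Next came 10758925 to 10759532, with q-values of 1.38e-28 (combined), 9.77e-17 (replicate 1) and 1.19e-11 (replicate 2). The region from 2785566 to 2786212 had 8.52e-26 (combined), 3.21e-14 (replicate 1) and 9.53e-12 (replicate 2). These held ranks 4 to 9 on III in each replicate.

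Other narrow regions stood differently in the replicates, with ranks counted on III. The region from 7854423 to 7854847 ranked 8 in replicate 1 and 3 in replicate 2, and that from 6971831 to 6972258 ranked 36 in replicate 1 and 8 in replicate 2. That from 4475425 to 4475803 ranked 12 in replicate 1 (q = 9.00e-13) and 76 of 82 in replicate 2 (q = 3.48e-05), near the end of the list. The 7 narrow regions not given singly held ranks on III from 6 to 79 in replicate 1 and from 10 to 59 in replicate 2.

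The median call on III was about as strong as elsewhere. The median −log10 q was 5.55 (5.34 to 5.77) on III and 5.49 (5.36 to 5.58) on the other chromosomes, a shift of 0.10 (−0.06 to 0.26). In replicates 1 and 2 the medians on III were 5.33 and 5.45, against 5.19 and 5.38 elsewhere, and neither shift differed from 0. Of the best 20, 50, 100 and 200 regions of the combined list, III held 4, 13, 30 and 56. Its share among the best 200 was 28.0% (22.2 to 34.6%), against 22.1% of the whole list, which lay just below that interval. Among the best 100 its share was 30% (21.9 to 39.6%), an interval that held 22.1%.

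Combined regions on III were slightly narrower. The median was 350 bp (331 to 366 bp) on III and 375 bp (368 to 383 bp) on the other chromosomes, a rank-based shift of −25 bp (−40 to −11 bp). Chromosome II had the same median, 350 bp, and IV, V, I and X had 372, 374, 380 and 422.5 bp. In replicate 2 the medians were 338.5 bp on III and 409.5 bp elsewhere (shift −44 bp, −79 to −13 bp). In replicate 1 they were 354.5 and 378 bp, and that shift of −17 bp did not differ from 0 (−36 to 1 bp).

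In the better-scored 50% of the combined list the shift was −8 bp (−31 to 15 bp). Combined regions were sorted into quartiles of q over the whole list. In quartile 1, with the lowest q, the median width was 524 bp on III and 518.5 bp elsewhere (shift −11 bp, −48 to 26 bp), so no difference was detected. In quartile 2 it was 358 and 387.5 bp (shift −17 bp, −42 to 6 bp). In quartile 3 it was 298 bp on III and 340 bp elsewhere (shift −29 bp, −48 to −10 bp), and in quartile 4 it was 247 and 299.5 bp (shift −48 bp, −67 to −28 bp). Whether the shift differed between quartiles was not tested. Within quartile 4, II had a median of 253 bp, and the other 4 chromosomes 298 to 365 bp.

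Very narrow regions were more common on III. Regions of 200 bp or less numbered 43 on III (7.43%, 5.56 to 9.85%) and 76 elsewhere (3.72%, 2.98 to 4.63%), a difference of 3.70 points (1.63 to 6.24). The share was 6.85% on II, 5.39% on IV, 2.89% on I, 1.61% on V and 0.301% on X. The narrowest called region on III was 23 bp wide. Of the 43 on III, 36 lay in the weakest quartile of q, and only 2 had a call in a replicate. That quartile held 26 of 33 on II, 21 of 26 on IV, 7 of 9 on I, 7 of 7 on V and 1 of 1 on X. On these chromosomes together, 2 of 76 (2.63%) had a replicate call.

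Between width and −log10 q, Spearman's rho in the combined list was 0.60 over the 579 regions of III, against 0.40 to 0.56 on each of the other chromosomes. In replicate 1 the value on III was 0.45, against 0.31 to 0.50 elsewhere. These are descriptions across regions of a list, and q itself depends on width. Wider regions more often had a replicate call, on III as elsewhere. On III this held for 2 of 43 regions (4.65%, 1.28 to 15.5%) of at most 200 bp and 36.2% of those up to 400 bp. It held for 50.4% of those up to 600 bp, 57.3% of those up to 1000 bp and 72.0% (52.4 to 85.7%) of the 25 above 1000 bp. In the same width classes on the other chromosomes the shares were 2.63%, 32.9%, 46.2%, 55.4% and 68.75%.

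**Figure D3:**
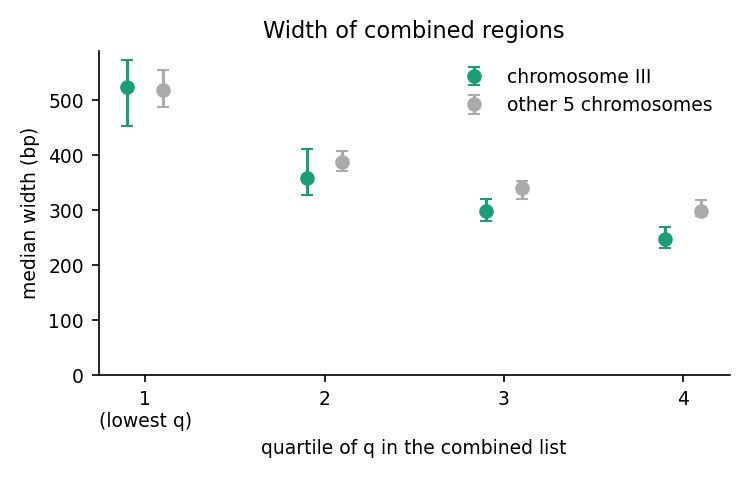
Median width in bp (vertical axis) of combined regions on chromosome III and on the other 5 chromosomes, by quartile of q over the whole combined list, with exact order-statistic 95% intervals. The medians are close in quartile 1 (524 and 518.5 bp) and lower on III in quartile 4 (247 and 299.5 bp).

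No difference in replicate support overall was detected between III and the other chromosomes. At least 1 replicate called 238 of the 579 combined regions on III, or 41.1% (37.2 to 45.2%), where the share over all chromosomes was 40.3%. On the other 5 chromosomes it was 818 of 2042, or 40.1%, a difference of 1.05 points (−3.43 to 5.61). On III, 67 regions were called in both replicates, 159 in replicate 1 alone, 12 in replicate 2 alone and 341 in neither. In 65 of the 67 called in both, the combined q was lower than either replicate's, as it was in 179 of 181 elsewhere.

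Calls in both replicates were 11.6% (9.22 to 14.4%) of the combined regions on III, where the share over all chromosomes was 9.46%. The other 5 chromosomes had 8.86% (7.71 to 10.2%), a difference of 2.71 points (0.0115 to 5.80). This barely excluded 0 and rested partly on chromosome I, which had 4.50%. Against II, IV, V and X alone the difference was 1.92 points (−0.86 to 5.07), and with the better-scored 50% of each list it was 0.96 points (−2.51 to 5.21). With all lists ended at the weakest q of replicate 2 it was 2.73 points (−0.61 to 6.53). Of the single chromosomes, IV came nearest to III, with 10.6%.

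Support fell with weaker q on III as elsewhere. In quartile 1 at least 1 replicate called 138 of 158 regions on III (87.3%, 81.3 to 91.7%) and 443 of 498 elsewhere (89.0%, 85.9 to 91.4%). In quartiles 2, 3 and 4 the shares on III were 43.8%, 19.2% and 8.27%, against 47.7%, 17.8% and 7.09% elsewhere, and no quartile showed a difference. Calls in both replicates were nearly confined to quartile 1, with 64 of the 67 on III (95.5%) and 172 of the 181 elsewhere. In that quartile they were 40.5% of regions on III and 34.5% elsewhere, a difference of 5.97 points (−2.53 to 14.7). Of the best 100 combined regions on III, 98 were called in at least 1 replicate and 51 in both. The same count was not made on the other chromosomes, so it does not compare III with them.

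**Figure D4:**
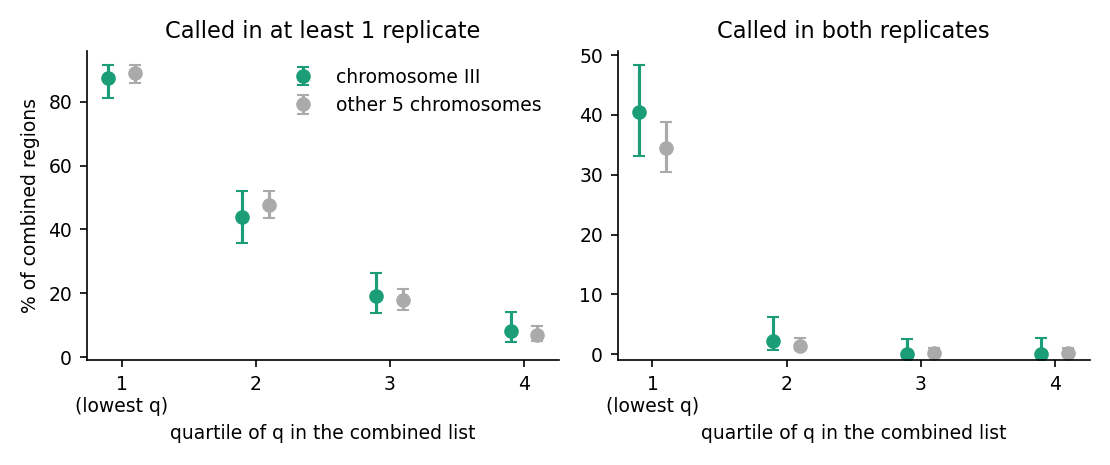
Share of combined regions (vertical axis, %) called in at least 1 replicate (left panel) or in both replicates (right panel), on chromosome III and on the other 5 chromosomes, by quartile of q, with 95% Wilson intervals. The intervals of III and the others overlap in every quartile, and the share falls on III from 87.3% in quartile 1 to 8.27% in quartile 4 in the left panel.

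The 5 strongest combined regions on III with no replicate call were 3796981 to 3798314 (q = 6.79e-13), 7973173 to 7974371 (q = 1.10e-10), 8652543 to 8653142 (q = 7.09e-10), 11243294 to 11243644 (q = 9.45e-10) and 4568439 to 4568866 (q = 9.78e-10). They ranked 46, 86, 102, 106 and 108 on III. The strongest of them began a run at the place of the fifth widest region, with 865 bp to its right neighbour.

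Between the replicates, 69 of the 232 replicate 1 regions on III overlapped replicate 2, or 29.7% (24.2 to 35.9%), where the share over all chromosomes was 24.3%. Elsewhere it was 183 of 806, or 22.7% (19.9 to 25.7%), a difference of 7.04 points (0.75 to 13.8). Against II, IV, V and X alone the difference was 6.14 points (−0.26 to 13), and with the better-scored 50% of each list it was 1.68 points (−6.45 to 10.9), so it depended on both choices. Replicate 2 was also relatively longer on III, with 2.83 replicate 1 regions for each of its own, against 3.21 (IV) to 4.50 (I) elsewhere.

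In the other direction, 69 of the 82 replicate 2 regions on III overlapped replicate 1, or 84.1% (74.7 to 90.5%), where the share over all chromosomes was 81.3%. On the other chromosomes it was 183 of 228, or 80.3%, a difference of 3.88 points (−6.61 to 12.4).

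Where the replicates met on III their regions lay close, but a pair had to overlap, which by itself limits the distance. The 69 pairs had midpoints a median of 38.5 bp apart, with 56 pairs (81.2%) within 100 bp and the most distant pair 439 bp apart. The overlap was a median of 73.7% of the stretch covered by either region. Over 182 pairs elsewhere the median distance was 38.2 bp and 74.2% lay within 100 bp.

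Paired regions on III were a median of 377 bp wide in replicate 1 and 339 bp in replicate 2, and 41 of the 69 were narrower in replicate 2. The median −log10 q of the pairs was 6.90 in replicate 1 and 5.76 in replicate 2, with the lower q in replicate 1 for 52 pairs and in replicate 2 for 17. Over the 69 pairs, −log10 q had a Spearman's rho of 0.45, against 0.50 over the pairs elsewhere. These values come from regions cut by q in both lists.

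**Figure D5:**
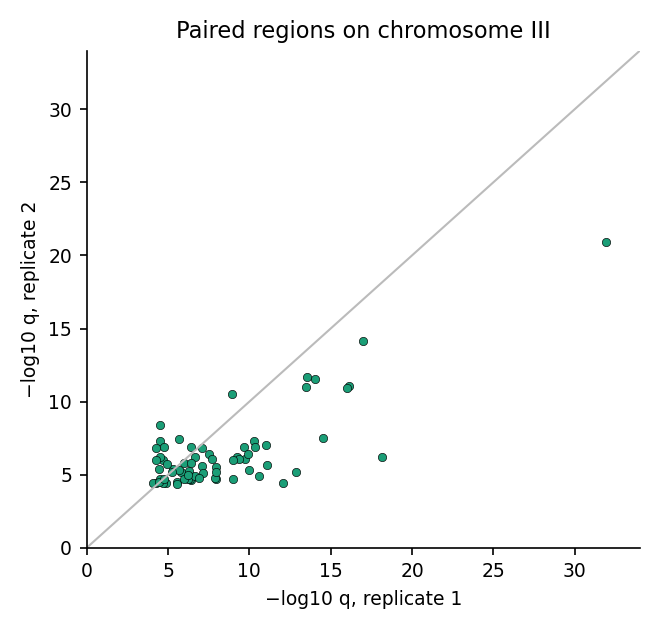
−log10 q in replicate 1 (horizontal axis) against replicate 2 (vertical axis) for the 69 region pairs of chromosome III; each point is a pair and the grey line marks equal values. Most points lie below the line, with the lower q in replicate 1 for 52 of 69 pairs, and the pair at the upper right is the region that ranked 1 on III in both replicates.

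Regions of a single replicate on III were led by 12425825 to 12426775 in replicate 1 (q = 6.84e-14, rank 10 on III). It was followed by 9050981 to 9051903 (q = 7.04e-12) and 9052447 to 9054156 (q = 1.06e-11), which are neighbours 543 bp apart in the same run. In replicate 2 the unshared regions were weaker, led by 7369734 to 7370200 (q = 3.92e-07, rank 23), 1625496 to 1625833 (q = 2.32e-06, rank 37) and 4434413 to 4434761 (q = 2.77e-06, rank 40). The first of these met a combined region with q = 1.53e-04, far weaker than its own value in replicate 2, and the others met combined regions with q = 6.42e-11 and 2.17e-09. In replicate 2 the region 931226 to 931679 had rank 4 on III, at q = 2.66e-12, and the combined region there ranked 39.

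Nearly all replicate regions overlapped the combined list, on III as elsewhere. On the other chromosomes 777 of 806 replicate 1 regions (96.4%) and 227 of 228 replicate 2 regions did so. On III, 228 of the 232 replicate 1 regions overlapped a combined region (98.3%), as did 81 of 82 from replicate 2. The exceptions in replicate 1 were 9825000 to 9825625, only 36 bp from the nearest combined region, 7335195 to 7335560, 6202465 to 6202819 and 4950424 to 4950649, with q between 9.60e-06 and 5.65e-05. The exception in replicate 2 was 8020847 to 8021134, at q = 2.06e-05 and 8179 bp from the nearest combined region.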

How the data were processed

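Each region in the deposited lists carries a q-value, the source PeakSeq and build WS180, per the file headers and source column. PeakSeq sets windows of ChIP reads against a scaled input, so q moves with depth, scaling and width. The sources used here do not state how reads were aligned, which q limit and input each list used, or how replicates were combined. Read depth is unknown, and input samples entered only through the calls.

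Lists were read with Python 3.11.15 and compared with scipy 1.17.1. Overlap means at least 1 bp, and pairs were matched 1 to 1 by largest overlap. Shares have Wilson intervals and Newcombe intervals for differences, density ratios exact conditional intervals, and medians order-statistic intervals with Hodges-Lehmann shifts. No p-value was computed, since each replicate is a single list. Functions were tested on simulated data.

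The members and lists were chosen with earlier results of these data known. Regions named are the 20 with the lowest q, the 5 widest, the 5 fullest runs, the 5 longest gaps and, for each replicate, up to 2 of its longest, the 5 strongest without a replicate call, the 5 and 3 strongest and strongest unshared per replicate, replicate regions outside the combined list, and the 3 fullest and 3 emptiest bins.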

Additional observations from a re-analysis of the deposited data

How the results depend on the processing

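Of 51 alternatives to 11 results, 42 were planned and 9 were chosen after seeing the data; in 35 the result kept its direction and its call, or absence of one. The density ratio of III stayed above 1 in all 5 of its alternatives. Values below are III minus the other chromosomes. The share called in at least 1 replicate turned to −0.28 points with all lists ended at the weakest q of replicate 2, and to −0.60 points against II, IV, V and X; neither differed from 0. The share called in both replicates no longer differed from 0 with lists ended at that q (2.73 points), with the better-scored 50% of each list (0.96) or against II, IV, V and X (1.92). The share of replicate 1 overlapped by replicate 2 likewise lost its call with the better-scored 50% (1.68) and against those chromosomes (6.14), and the reverse share turned to −7.61 points with the better-scored 50%. The central share ranged from −0.61 (replicate 1 list alone) to 14.6 points (replicate 2 list alone, the only list with a difference) and was −0.17 with the central 50% of the length. The share in runs lost its call with gaps of at most 2000 bp (1.45) and at equal density (0.95). It kept its call with gaps of at most 10000 bp (11.7), with the better-scored 50% (6.54) and against II, IV, V and X (5.41). Its interval also excluded 0 in each replicate list alone, where density was not matched. In replicate 2 this rested on 1 run of 3 regions on III and 0 of 228 regions elsewhere. Regions enter a run together, so the interval, which takes them as independent, cannot establish a difference there. The width shift lost its call with the better-scored 50% (−8 bp) and ranged from −44 to −17 bp over the replicate lists alone. At equal density the share called in at least 1 replicate was 23.9 points higher on III and the share called in both 14.8 points higher (9.61 to 20.7), by construction, since III then keeps its best 44.6% of regions and X keeps all. The cause of these changes was not tested, and the equal-density cut changed call strength along with density. No paired analysis was possible because each ChIP replicate is a single list of regions while input libraries enter only through the calls.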
